A study of Mus musculus with 30 samples.

Results

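The comparison described here set parental Eµ-Myc Cdkn2a-/- lymphoma cells after 24 h in 750 nM mafosfamide against the same cells after 12 h. It used 9 of the 30 arrays of the series, 5 at 24 h and 4 at 12 h, chosen by the cell line, dose and time in the sample labels. No untreated array entered it, so each difference is a change between these times within the drug exposure and says nothing of the level before the drug. The line came from the lymphoma of a C57BL/6J mouse whose Eµ-Myc transgene drives Myc from an immunoglobulin heavy chain enhancer in B-lineage cells. It lacked Cdkn2a, the locus of the p16INK4a and p19ARF tumour suppressors, and both groups shared transgene, deletion and dose. The flasks of both groups also held irradiated Cdkn2a-/- mouse embryonic fibroblasts as a feeder layer, and the labels name no step that removed them before RNA extraction. The labels call the arrays biological replicates of 1 line, and nothing in them ties a replicate number to a culture followed over time. The p-values below come from fits with the replicate number as a block, unless stated. They therefore measure the spread left between arrays once differences between numbers are removed, and not that between tumours or mice.

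Mafosfamide is a form of cyclophosphamide that needs no activation in the liver, and its product alkylates and crosslinks DNA. Crosslinks block replication forks and activate the damage kinases and p53, whose targets include inhibitors of the cell cycle, repair factors and killers of the BCL2 family. The same kinases can activate NF-kB, a family of dimeric transcription factors held in the cytoplasm by inhibitors such as IκBα. These inhibitors and several NF-kB subunits are themselves NF-kB target genes, which makes the pathway a set of feedback loops.

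Values are log2 expression, so that a difference of 1 is a 2-fold change, and errors of single groups are SD. Array medians lay between 7.28 and 7.37 and interquartile ranges between 3.45 and 3.64. Of 8 B-lineage identity markers 7 were measured, and 6 of these varied little: Cd79a lay between 13.27 and 13.48, Cd79b between 13.40 and 13.68, Pax5 between 11.65 and 12.05, Ebf1 between 12.17 and 12.53, Cd22 between 11.32 and 11.81 and Blnk between 11.98 and 12.21. None of the 7 differed between the times by the test used below. These 6 were high on every array, as the labelled cell type would have them.

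The replicate numbers in the sample descriptions (1 to 5 at 24 h, 2 to 5 at 12 h) set some arrays apart at both times. Ms4a1, which encodes the B-cell surface protein CD20, stood at 12.37 (12 h) and 12.05 (24 h) for number 2 and at 11.33 for number 1. For numbers 3, 4 and 5 it stood at 8.76, 8.12 and 6.88 at 12 h and at 8.89, 8.22 and 8.71 at 24 h. The immunoglobulin kappa variable segment Igkv5-43 was the reverse, at 6.86 and 6.37 for number 2 and 6.90 for number 1 against 9.58 to 9.95 with the other numbers. Igkv4-91 lay between 9.06 and 9.58 with numbers 1 and 2 and between 11.75 and 12.44 with the others. The Y-linked gene Uty lay between 5.18 and 5.92 against 7.69 to 8.52, while Kdm5d, also Y-linked, lay between 9.10 and 9.46 throughout. Of the 19937 genes tested, 28 had both arrays of number 2 more than 1 log2 unit outside the 6 arrays of numbers 3 to 5. Number 1 lay on the side of number 2 for 26 of them. No gene set numbers 3, 4 or 5 apart in this way. Ms4a1, the kappa segments and Uty were among the genes with the widest gaps in this split. Whether numbers 1 and 2 are the same cells as numbers 3 to 5 cannot be told from the labels and was not tested. Each 24 h array was compared with the 12 h array of its own number. The titles number the same 12 h arrays 1 to 4, and with those numbers as the block limma called no gene (smallest adjusted p = 0.0932, with 2251 genes at an unadjusted p under 0.05). Number 1 has no 12 h array and adds nothing to the differences, although its 24 h values are shown.

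With the replicate number as a block, limma called 940 of 19937 genes at an adjusted p below 0.05 (4.71%). Of these 565 were higher (2.83% of the genes tested) and 375 lower (1.88%) at 24 h. All 940 moved in the same direction in the 4 pairs, as did 33.2% of all genes tested. In 291 of the called genes the arrays of the groups did not overlap, 131 higher and 160 lower, against 4.93% of all genes tested (1.95% higher and 2.98% lower). The changes were small: 49 genes were at least 2-fold higher and none was called at 2-fold lower or more. The largest rise was 1.41 and the largest fall -1.0 on the log2 scale, and the median difference of all genes was -0.018.

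These calls rest on few pairs. Leaving out both arrays of number 2 left 299 genes called, and leaving out number 3 left 519. Leaving out number 4 or number 5 left none (3576 and 3706 genes at an unadjusted p under 0.05), and without the block limma called 8 genes (2641 at an unadjusted p under 0.05). A test of all 34760 probe sets, named or not, also called none (6610 at an unadjusted p under 0.05). Of 133 called genes, which are those named by rule and every other called list member, 64 were still called without number 2. Among these were Nfkb2, Nfkbie, Nfkbia, Bcl3, Tnfaip3, Relb, Igll1, Bst1, Rag1, Rag2 and H2bc8, while Rel, Birc3, Psrc1, Ly6d, H3c15, H3c4 and H2ac4 lost their calls. A fit of the 18 treated parental arrays from 6 h to 48 h, with the block and the same difference, called 1400 genes (4.15% of those tested higher, 2.87% lower) and shared 787 with the calls over 9 arrays. That fit still called 62 genes without number 4 and 77 without number 5, and Nfkb2, Nfkbie, Nfkbia, Bcl3, H2bc8, Btg2, Gtse1, Bst1, Bex6, Lifr, Sel1l3, Ptpn22 and Vcl were among both.

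**Figure D1:**
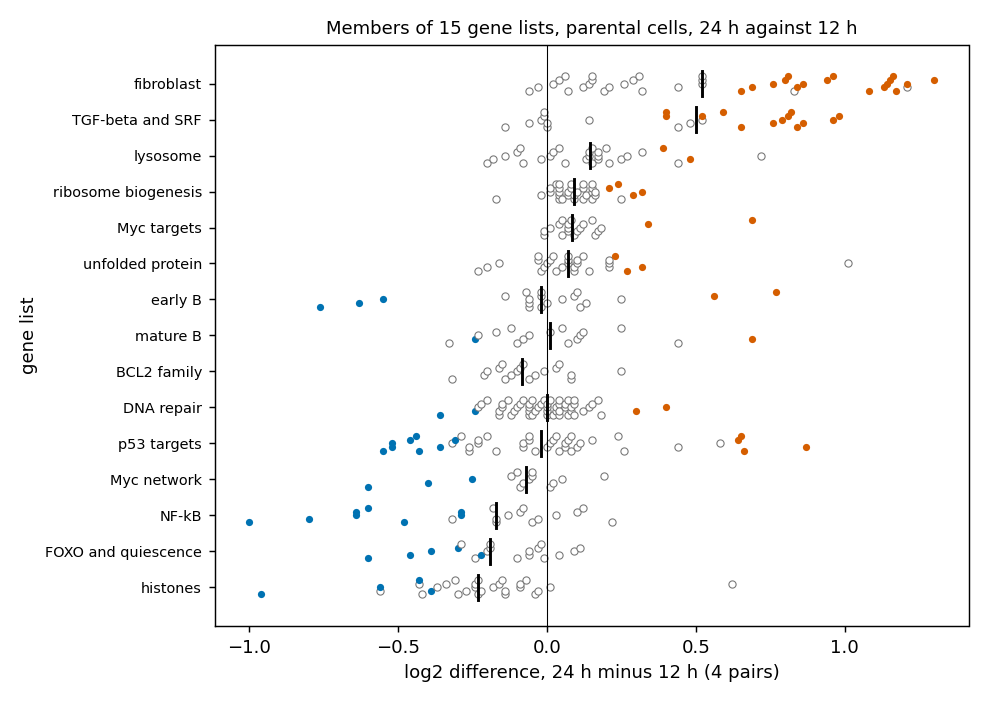
Log2 difference between 24 h and 12 h (x axis, blocked by replicate number over 4 pairs) for each measured member of 15 gene lists (y axis). Filled points passed the test (orange higher, blue lower at 24 h), open points did not, and the black bars are list medians: the fibroblast median lies at 0.52, the NF-kB median at -0.17 and the histone median at -0.23.

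Of 21 NF-kB genes measured, 8 fell and none rose (1.88% of all genes fell), and 13 were not called. The median difference was -0.17, 17 lay below 0 and 13 were lower in all 4 pairs. The members that fell were 3 subunits, 3 inhibitors or related proteins of the IκB family and a pair of further target genes.

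Nfkb2 encodes the p100 precursor, which holds RelB in the cytoplasm until it is processed to p52. For numbers 2, 3, 4 and 5 it stood at 9.56, 9.80, 10.31 and 10 at 12 h. At 24 h it stood at 8.84, 8.90, 9.0 and 8.95 in the same order and at 9.02 for number 1. The 24 h arrays all lay below the 12 h arrays and were closer together, at 8.94 ± 0.07 (SD, n = 5) against 9.92 ± 0.32 (SD, n = 4). Nfkb2 fell by 1.0 on the log2 scale (SE 0.09, limma adjusted p = 0.0181), the largest fall of any named gene. It was among the 8 genes called in the fit without a block, at -0.98.

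Nfkbia encodes IκBα, the inhibitor that NF-kB induces within its own feedback loop. It stood at 10.74, 10.83, 11.23 and 11.20 for numbers 2 to 5 at 12 h. At 24 h it stood at 10.19, 10.16, 10.30, 10.48 and 10.50 for numbers 1 to 5, again without overlap. The difference was -0.64 (SE 0.05, limma adjusted p = 0.0181), and the 4 pairs gave -0.58, -0.53, -0.75 and -0.70. Nfkbie, which encodes IκBε, stood at 9.25, 9.42, 9.88 and 9.61 at 12 h and at 8.88, 8.71, 8.73, 8.81 and 8.72 at 24 h. It fell by 0.80 (SE 0.09, limma adjusted p = 0.0196), and its arrays did not overlap. Bcl3, a nuclear IκB protein that acts as a coactivator, stood at 9.65, 9.50, 9.50 and 9.33 at 12 h and at 8.70, 9.15, 8.99, 8.81 and 8.66 at 24 h, and fell by 0.60 (SE 0.05, limma adjusted p = 0.0181).

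Tnfaip3 encodes A20, a ubiquitin-editing enzyme that shuts off signalling to NF-kB. It stood at 7.98, 7.89, 8.45 and 8.37 at 12 h and at 7.66, 7.58, 7.41, 7.65 and 7.51 at 24 h, and fell by 0.64 (limma adjusted p = 0.0249). Relb, the partner of p52, fell by 0.48 (adjusted p = 0.0249), Rel, the subunit c-Rel, by 0.29 (adjusted p = 0.0378) and Birc3, an inhibitor of apoptosis protein, by 0.29 (adjusted p = 0.0393). The arrays of the groups overlapped for Rel and not for the others. The members that were not called included Rela at -0.17 (adjusted p = 0.104), Nfkbib at -0.17 (adjusted p = 0.0762), the cytokine gene Ltb at -0.32 (adjusted p = 0.0765), Tnf at -0.09 and Icam1 at -0.05. Lta, at 0.22 (adjusted p = 0.0947), was the one member higher in all 4 pairs. Il12a, a cytokine subunit gene outside the list, fell by 0.78 (adjusted p = 0.0196), although its groups overlapped.

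**Figure D2:**
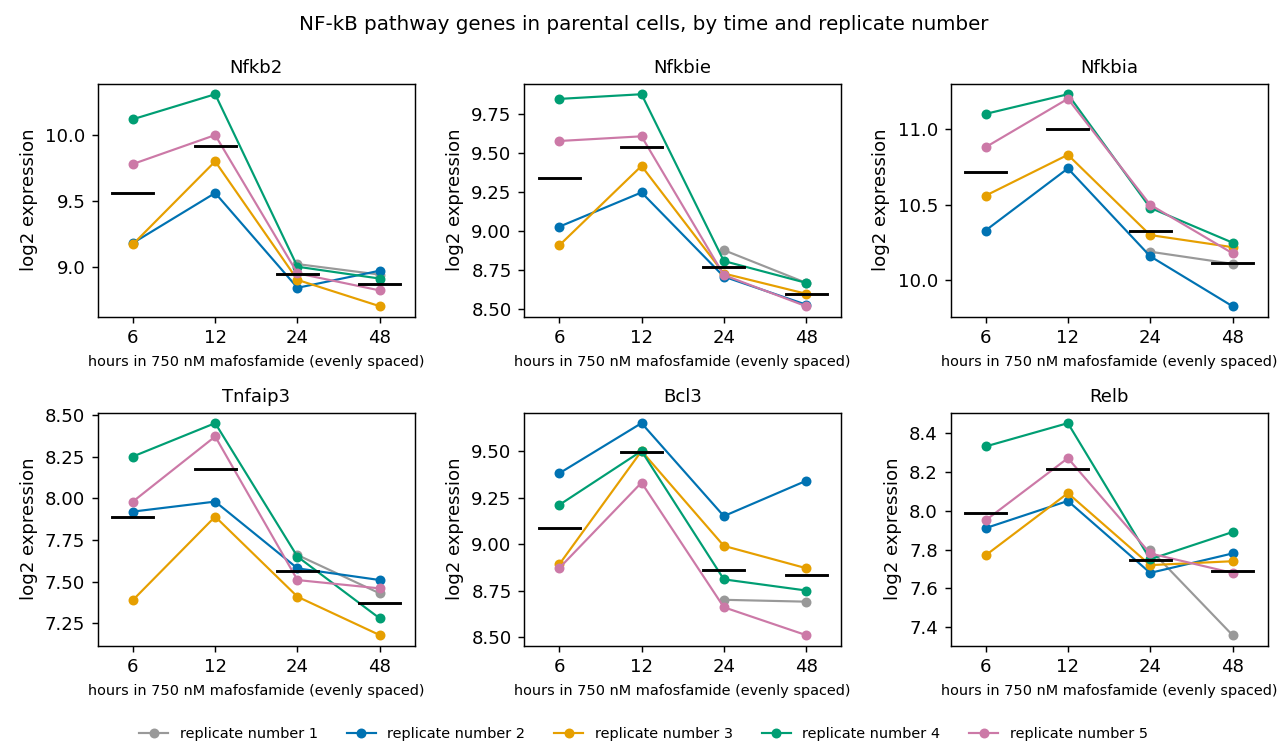
Log2 expression (y axis) of 6 NF-kB pathway genes on the 18 treated parental arrays at 6, 12, 24 and 48 h (x axis, evenly spaced). Points are arrays, coloured lines join arrays with the same number, and black bars are group means; in each panel the 24 h points lie below the 12 h points of their own number.

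The plot of NF-kB genes by time sets the difference among the other treated times. Nfkb2 had means of 9.56 at 6 h, 9.92 at 12 h, 8.94 at 24 h and 8.87 at 48 h. Nfkbia ran from 10.72 at 6 h through 11 and 10.33 to 10.12 at 48 h. Both were thus highest at 12 h, and the step between 12 h and 24 h was larger than that between 24 h and 48 h.

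Members of this pathway are known NF-kB targets, so the promoters that hold the κB motif are shown. A RefSeq promoter (build GRCm38.p6) was found for 7 of the 8 genes that fell. The κB consensus of 10 bases was searched on both strands of the 250 bases before each annotated start, and overlapping matches were kept. It was found in 5 of the 7 genes, Nfkb2, Nfkbia, Nfkbie, Rel and Tnfaip3, and not in this window of Bcl3 and Birc3. Of all 32851 promoters of the same length 3.9% held it, as did 5.05% of the 15613 tested genes with a promoter. For each of the 5 genes a promoter with a match follows, with the matched bases in capitals.
Nfkb2, chr19:46304487-46304736, plus strand: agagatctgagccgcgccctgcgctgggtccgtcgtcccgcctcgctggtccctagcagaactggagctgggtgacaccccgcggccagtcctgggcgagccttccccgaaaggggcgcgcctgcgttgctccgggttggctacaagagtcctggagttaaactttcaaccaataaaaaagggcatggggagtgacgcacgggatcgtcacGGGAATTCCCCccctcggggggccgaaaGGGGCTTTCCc
Nfkbia, chr12:55492648-55492897, minus strand: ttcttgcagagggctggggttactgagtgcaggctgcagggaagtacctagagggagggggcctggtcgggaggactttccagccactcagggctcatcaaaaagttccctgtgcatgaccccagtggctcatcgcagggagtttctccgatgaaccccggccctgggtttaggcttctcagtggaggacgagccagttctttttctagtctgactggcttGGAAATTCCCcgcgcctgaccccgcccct
Nfkbie, chr17:45555450-45555699, plus strand: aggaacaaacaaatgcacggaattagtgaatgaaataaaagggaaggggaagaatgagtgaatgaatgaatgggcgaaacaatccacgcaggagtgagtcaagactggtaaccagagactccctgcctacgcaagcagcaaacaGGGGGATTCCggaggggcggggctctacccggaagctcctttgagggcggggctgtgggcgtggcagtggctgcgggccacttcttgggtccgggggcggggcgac
Rel, chr11:23770970-23771219, minus strand: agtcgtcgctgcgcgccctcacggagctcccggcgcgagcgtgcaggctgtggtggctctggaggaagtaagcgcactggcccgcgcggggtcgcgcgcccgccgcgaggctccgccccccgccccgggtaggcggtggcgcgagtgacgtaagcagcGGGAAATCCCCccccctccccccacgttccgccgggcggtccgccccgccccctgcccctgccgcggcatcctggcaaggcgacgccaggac
Tnfaip3, chr10:19015411-19015660, minus strand: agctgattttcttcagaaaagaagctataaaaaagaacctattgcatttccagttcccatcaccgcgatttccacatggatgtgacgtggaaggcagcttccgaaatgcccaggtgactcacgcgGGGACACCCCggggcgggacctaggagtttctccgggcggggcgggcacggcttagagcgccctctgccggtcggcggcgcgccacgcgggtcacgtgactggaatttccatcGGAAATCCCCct
Nfkb2 has 3 annotated starts, and the 1 shown holds 3 of its matches, at 39, 38 and 11 bases before the start, the first pair of which overlap. The match of Nfkbia begins 29 bases before the start. A match describes the letters and does not show binding. The list members that were not called were not searched, so the share of genes with a match is not a result about the falls.

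Of 42 p53 targets measured, 4 rose and 8 fell (2.83% and 1.88% of all genes), with a median of -0.02 beside -0.018 over all genes. Those that fell included Psrc1, a microtubule-associated protein, Trp53inp1, a regulator of autophagy and cell death, Ddias, a suppressor of apoptosis after DNA damage, Gtse1, which binds p53 in G2, the antiproliferative Btg2, the mTORC1 inhibitor Ddit4 and the translesion polymerase Polk. Psrc1 stood at 10.64, 10.80, 10.82 and 10.71 at 12 h and at 10.51, 10.33, 10.51, 10.19 and 10.21 at 24 h. It fell by 0.43 (SE 0.07, limma adjusted p = 0.0282), after a mean of 9.50 at 6 h and before one of 9.44 at 48 h, so that its 24 h level was still above both. Ddit4 fell by 0.55, Trp53inp1 by 0.52, Ddias by 0.52, Btg2 by 0.46 and Gtse1 by 0.44, each without overlap between the groups.

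Dglucy, a mitochondrial glutamate cyclase, went the other way. It stood at 7.96, 8.34, 8.26 and 7.93 at 12 h and at 8.97, 8.78, 9.01, 8.66 and 8.62 at 24 h, and rose by 0.64 (SE 0.07, limma adjusted p = 0.0196). Its means were 6.67 at 6 h and 7.41 at 48 h, which makes 24 h its highest treated time. The other rises on the list were those of Perp, a desmosome and apoptosis protein (0.87), Ephx1, an epoxide hydrolase (0.66), and Ak1, an adenylate kinase (0.65). With the mean of the fibroblast list, described below, as a covariate over 18 arrays, all 3 had differences below 0, while over the 9 arrays Perp and Ak1 did and Ephx1 was at 0.17. Dglucy was at 0.42 in that fit of 18 arrays (limma adjusted p = 0.368), and none of the 42 p53 targets was called in it.

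Other p53 targets gave no difference past the threshold. Mdm2, the ubiquitin ligase of p53, was at 10.98 ± 0.21 (SD, n = 4) and 10.93 ± 0.25 (SD, n = 5), a difference of -0.06 (SE 0.05, adjusted p = 0.503). Ccng1, cyclin G1, differed by 0.00 (SE 0.05, adjusted p = 0.976), and Zmat3, an RNA-binding protein, by 0.24 (SE 0.05, adjusted p = 0.0512). Cd80, a ligand for T cells, differed by -0.29 (SE 0.07, adjusted p = 0.0735). Ccng1 had a mean of 12.85 at 6 h and 12.73 at 48 h against 13.28 at both times compared here. Within the BCL2 family no member of 18 was called; Bbc3, which encodes PUMA, was at -0.32 (adjusted p = 0.0649), Bcl2l11, which encodes BIM, at -0.21 (adjusted p = 0.0837) and Pmaip1, which encodes NOXA, at 0.03. No Bax, Cdkn1a or Gdf15 value under that single symbol was used here.

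Of 20 early B-cell genes measured, 2 rose and 3 fell (2.83% and 1.88% of all genes). Igll1 encodes λ5, part of the surrogate light chain of the pre-B-cell receptor. It stood at 9.67, 11.75, 10.93 and 11.01 at 12 h and at 11.41, 10.54, 12.38, 11.80 and 11.70 at 24 h. Numbers differed more than times, but each of the 4 pairs rose, by 0.87, 0.62, 0.87 and 0.70, which gave 0.77 (SE 0.06, limma adjusted p = 0.0181). Bst1, a surface enzyme of early B cells and stroma, stood at 9.58, 10.01, 9.34 and 9.34 at 12 h and at 10.69, 10.12, 10.49, 9.98 and 9.91 at 24 h, and rose by 0.56 (SE 0.05, adjusted p = 0.0181). Vpreb1, the partner of λ5 in the surrogate light chain, was at 0.25 (adjusted p = 0.0736).

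Both recombinase genes fell over the same interval. Rag1 stood at 8.95, 10.26, 10.39 and 10.46 at 12 h and at 8.79, 7.99, 9.64, 10.08 and 9.83 at 24 h, and fell by 0.63 (SE 0.10, limma adjusted p = 0.0276). Rag2 fell by 0.55 (SE 0.08, adjusted p = 0.0249). Number 2 was low for Rag1 at both times and number 1 at 24 h, so the groups overlapped although each pair fell. Ly6d, a surface marker of B-cell specification, fell by 0.76 (adjusted p = 0.0249), from 11.52, 10.30, 10.51 and 9.93 to 10.88, 9.58, 9.32 and 9.42 for numbers 2 to 5. The other 15 early B genes were not called, with Dntt at -0.06, Il7r at -0.14 and Vpreb3 at -0.06.

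Of the transcription factors of B cells, 1 of 27 rose and 1 fell (2.83% and 1.88% of all genes). Irf8 rose by 0.27 (adjusted p = 0.0406) and its relative Irf4, which drives light chain recombination and plasma cell fate, fell by 0.24 (adjusted p = 0.0445). Without overlap, Irf8 went from 11.45 to 11.55 at 12 h to between 11.64 and 11.80 at 24 h. The Irf8 call was lost after centring on housekeeping genes. Among mature B genes Cr2, complement receptor 2, rose by 0.69 (adjusted p = 0.03) and Cxcr4, a chemokine receptor, fell by 0.24 (adjusted p = 0.0393). The cathepsin gene Ctss, which trims the MHC class II invariant chain, rose by 0.52 (adjusted p = 0.0196), while H2-Ob, an inhibitor of peptide loading, fell by 0.29 (adjusted p = 0.0433).

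Of 29 replication-dependent histone genes measured, 4 fell (1.88% of all genes fell), none rose and 25 were not called, with 27 differences below 0 and a median of -0.23. H2bc8, an H2B gene, stood at 10.90, 10.90, 11.44 and 11.24 at 12 h and at 10.30, 10.23, 10.25, 9.93 and 10.20 at 24 h, and fell by 0.96 (SE 0.14, limma adjusted p = 0.0254). Its 6 h mean was 9.92 and its 48 h mean 9.99, so the 12 h arrays were the high ones. H3c15 fell by 0.56 (adjusted p = 0.0292), H3c4 by 0.43 (adjusted p = 0.0398) and H2ac4 by 0.39 (adjusted p = 0.0322). In the fit of 18 arrays the list had 6 calls, but H3c15 (adjusted p = 0.0807) and H3c4 (adjusted p = 0.078) were not among them. The histone genes are near copies of each other, so a probe set may measure more than its named gene. Other lists of the cell cycle showed few calls: 1 of 37 G1/S and replication genes fell (Tk1, thymidine kinase, by 0.30), 1 of 31 G2/M genes fell (Psrc1), and 2 of 20 checkpoint genes fell, H2ax by 0.33 and Rad9a by 0.25.

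**Figure D3:**
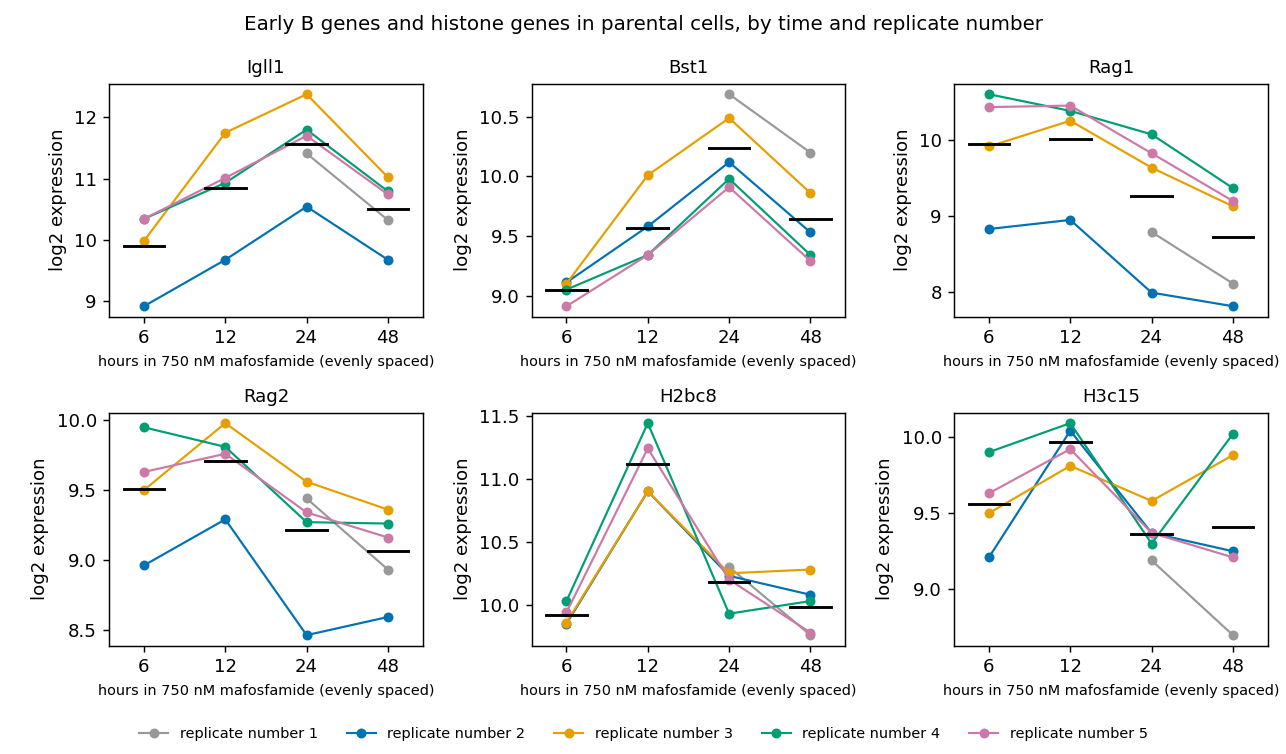
Log2 expression (y axis) of 4 early B genes and 2 histone genes on the 18 treated parental arrays at 6, 12, 24 and 48 h (x axis, evenly spaced), with lines joining arrays of the same number and black bars for group means. Igll1 and Bst1 rose and Rag1 and Rag2 fell within each number from 12 h to 24 h, and H2bc8 was highest at 12 h with a mean of 11.12.

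Myc itself stood at 13.07 ± 0.03 (SD, n = 4) and 13.07 ± 0.03 (SD, n = 5), a difference of 0.01 (SE 0.04, limma adjusted p = 0.925). Of 14 genes of its network 3 fell (1.88% of all genes fell). They were Mxd4 (-0.60, adjusted p = 0.027) and Mxd3 (-0.40, adjusted p = 0.0358), repressors that compete with Myc for Max, and Mlx (-0.25, adjusted p = 0.0414), a Max-like partner. Max was at 0.02. Among Myc targets 2 of 20 rose (2.83% of all genes rose). These were Ccnd2, cyclin D2, by 0.69 (adjusted p = 0.0265) and Odc1, ornithine decarboxylase, by 0.34 (adjusted p = 0.0321). With the fibroblast covariate over 18 arrays, given below, the differences were 0.12 (adjusted p = 0.858) and 0.17 (adjusted p = 0.536).

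Of 33 ribosome biogenesis genes 4 rose (2.83% of all genes rose), none fell and 29 were not called. The median was 0.09, beside 0.07 for the housekeeping list. Tsr1 rose by 0.29, Nip7 by 0.32, Noc3l by 0.24 and Ddx21 by 0.21, and the calls of Noc3l and Ddx21 were lost after median or housekeeping centring. None of 31 ribosomal protein genes was called. Of 19 genes linked to FOXO factors and quiescence 5 fell (1.88% of all genes), none rose and 14 were not called, among them Foxo1 (-0.06), with a median of -0.19. Besides Mxd4 and Btg2 these were the antiproliferative Tob1 (-0.39, adjusted p = 0.0217), Cited2, a CBP/p300-binding coregulator (-0.30, adjusted p = 0.0285), and Foxo4 (-0.22, adjusted p = 0.0445).

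Stress lists held few calls, to be read beside the 2.83% of all genes that rose and the 1.88% that fell. Of 28 genes of the unfolded protein response 3 rose, the endoplasmic reticulum chaperones Pdia6 (0.32), Hspa5 (0.27) and Hsp90b1 (0.23), the last 2 of which lost their calls after median or housekeeping centring. Of 14 heat shock genes 3 rose, Hspb8 (0.50), Dnaja1 (0.26) and Serpinh1 (0.25). With the fibroblast covariate over 18 arrays these were at 0.21, 0.25 and -0.11, none was called, and the list median went from 0.16 to -0.02. The oxidant response genes Hmox1, heme oxygenase, and Nqo1, a quinone reductase, differed between pairs in sign. Hmox1 differed by 1.84, -0.62, 0.56 and -0.18 and Nqo1 by 1.81, -0.78, 0.55 and 0.02 for numbers 2 to 5, and neither was called (adjusted p = 0.536 and 0.538). At 12 h Hmox1 was at 8.93 for number 2 and between 10.79 and 11.37 in the others. In DNA repair 2 of 53 genes rose, the uracil glycosylase Ung (0.40, adjusted p = 0.0217) and Prkdc, the catalytic subunit of DNA-PK (0.30, adjusted p = 0.035), and 2 fell, Polk (-0.36) and Xrcc1 (-0.24). None of 18 drug efflux genes was called, although the fit of 18 arrays called Abca1 (0.65), Abcb1b (0.40) and Abcb4 (0.26) among 4 higher and Abcc10 (-0.20) lower. With the fibroblast covariate in that fit, Abca1 was at -0.01 (adjusted p = 0.986), Abcb1b at 0 (adjusted p = 0.999) and Abcc10 at -0.11 (adjusted p = 0.675). Abcb4 was still called, at 0.45 (adjusted p = 0.0373). Among 19 aldehyde dehydrogenases 1 rose, Aldh7a1 (0.46), and 1 of 26 glutathione genes, Gstt2, fell (-0.41).

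Of 39 fibroblast genes measured, 17 rose and none fell (2.83% of all genes rose), 37 lay above 0, and the median was 0.52. The 15 largest rises by the naming rule held 5 members of this list, S100a6, a calcium-binding protein (1.30), Fn1, fibronectin (1.21), Thbs1, thrombospondin 1 (1.17), Lox, which crosslinks collagen (1.16), and Cald1, caldesmon (1.15). The largest of all were on no list, Akr1c18, a steroid reductase (1.41), Lpp, an adhesion plaque protein (1.32), and the annexin Anxa3 (1.31), and the annexins Anxa2 (1.27) and Anxa1 (1.23) were also among the 15. The other probe sets of Lpp gave 0.77 and 0.06. Fn1 stood at 10.22, 9.86, 10.69 and 10.84 at 12 h and at 12.42, 12.20, 10.60, 12.02 and 11.61 at 24 h, where number 3 alone was within the 12 h range.

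The mean of the 39 genes moved in the same way. It stood at 8.48, 8.07, 8.42 and 8.58 at 12 h for numbers 2 to 5 and at 9.84, 9.42, 8.37, 9.18 and 8.93 at 24 h for numbers 1 to 5. The pairs differed by 0.94, 0.30, 0.76 and 0.35, and the highest array was that of unpaired number 1. At 48 h the mean lay between 8.0 and 9.22, and in the resistant lines R500, R1000 and R4000 after 24 h of the same dose, with 1 array each, at 8.22, 8.17 and 7.88. Of the 39 genes 22 were not called. Lum, lumican, lay between 4.51 and 4.68 on all 9 arrays. The collagen gene Col1a1 lay between 8.40 and 8.89 at 12 h and between 8.55 and 9.89 at 24 h (0.32, adjusted p = 0.0718), and Col3a1 was at -0.06 (adjusted p = 0.584).

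**Figure D4:**
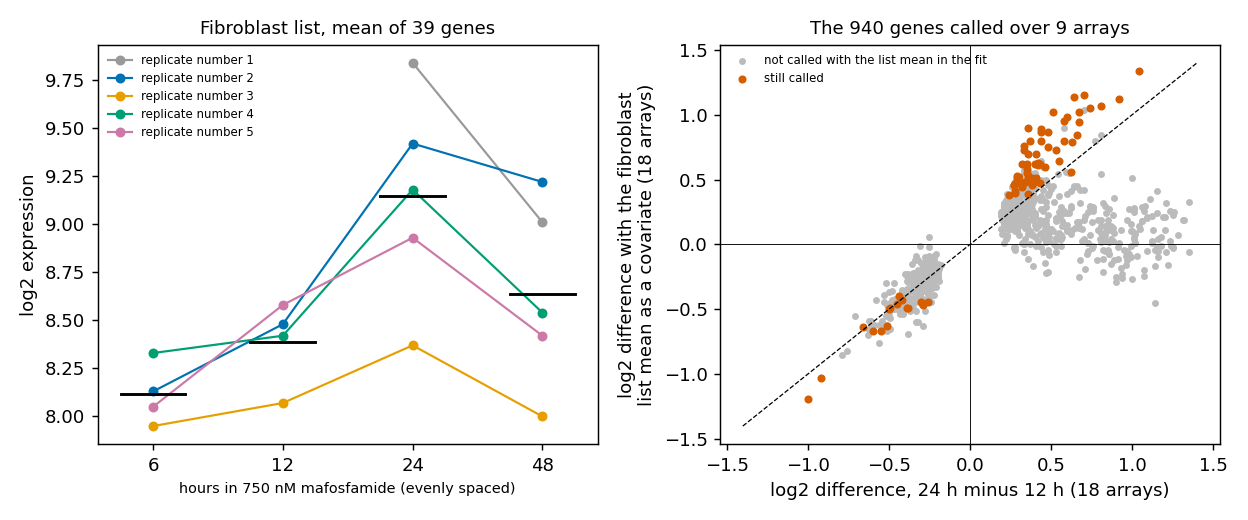
In the left panel, the average log2 level of 39 fibroblast genes (y axis) on the 18 treated parental arrays by hours of drug (x axis, evenly spaced), with lines joining arrays of the same number and bars for group means, highest at 24 h in each number. In the right panel, for the 940 genes called, the log2 difference in the fit of 18 arrays (x axis) against that with the fibroblast mean as a covariate (y axis); the dashed line marks equality, and 58 higher and 16 lower genes (orange) were still called.

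In RNA from a mixed flask, fewer cells of a type and less RNA per cell cannot be told apart, so the level of a fibroblast gene here is a share of all RNA. Of 24 genes linked to TGF-β and to the actin-regulated factor SRF, 13 rose (2.83% of all genes), none fell and 11 were not called, with a median of 0.50. Of these, 6 are also on the fibroblast list and 7 are not. Actn1, α-actinin, rose by 0.98, Ankrd1 by 0.82, Ltbp1, which tethers latent TGF-β, by 0.79 and Vcl, vinculin, by 0.59. The TGF-β pathway members Smad3 (0.14), Smad7 (0.00), Skil (-0.01) and Tgif1 (-0.14) were not called. Among markers of other cell types, 1 of 20 T and NK cell genes rose (Gata3, 0.27), 3 of 19 myeloid genes rose (Mrc1, 0.44, Csf1r, 0.43, and Tyrobp, 0.33) and none of 10 erythroid genes was called, beside 2.83% of all genes that rose. The list means of T and NK genes were 6.51 ± 0.02 (SD, n = 4) and 6.52 ± 0.02 (SD, n = 5), and those of myeloid genes 6.96 ± 0.10 (SD, n = 4) and 7.02 ± 0.16 (SD, n = 5), with pairs of 0.02, 0.10, 0.17 and 0.11.

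With the fibroblast mean of each array as a covariate, the fit of 18 arrays called 94 genes higher (0.471% of those tested) and 32 lower (0.161%). It kept 58 of the 565 rises and 16 of the 375 falls. Between the fits of 18 arrays without and with the covariate, the median of these rises went from 0.41 to 0.24. That of the falls went from -0.30 to -0.28, and 866 of the 940 genes kept their sign. The covariate overlaps with time, as the fibroblast mean was highest at 24 h in each number. A lost call is therefore not by itself a lost difference. The median over the fibroblast list, whose members make up the covariate, became 0.01, that of the TGF-β and SRF list 0.07 and that of the NF-kB list -0.14. Nfkb2 (-1.19, adjusted p = 0.012), Nfkbia (-0.64, adjusted p = 0.0279) and Bcl3 (-0.67, adjusted p = 0.0279) were still called. Nfkbie (-0.85, adjusted p = 0.053), Tnfaip3 (-0.70, adjusted p = 0.0663), Rag1 (-0.59, adjusted p = 0.0961) and Igll1 (0.80, adjusted p = 0.144) kept their size and missed the threshold. So did H3c4 (-0.69, adjusted p = 0.0852) and H2ac4 (-0.43, adjusted p = 0.112). Rag2 (-0.47, adjusted p = 0.256), Ly6d (-0.55, adjusted p = 0.484) and H3c15 (-0.45, adjusted p = 0.546) were smaller than over 9 arrays and not called. Bst1 (0.64, adjusted p = 0.0229) and H2bc8 (-1.03, adjusted p = 0.0363) were still called. The same covariate over the 9 arrays left 2 residual degrees of freedom and no gene called (1439 at an unadjusted p under 0.05). What part the fibroblasts have in the other changes was not tested beyond this.

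Among the rises also called with the covariate, Bex6, of the brain-expressed X-linked family, stood at 8.95, 8.97, 8.39 and 8.01 at 12 h and at 9.81, 9.45, 10.04, 9.65 and 9.25 at 24 h. It rose by 1.02 (SE 0.12, limma adjusted p = 0.0217), 2.03-fold, without overlap, and by 1.34 with the covariate. Lifr, a receptor of leukaemia inhibitory factor, stood at 7.66, 7.79, 6.95 and 6.90 at 12 h and at 8.23, 8.40, 8.88, 7.79 and 7.98 at 24 h. Its difference was 0.94 (SE 0.07, adjusted p = 0.0181), and its highest 12 h value, 7.79 for number 3, met the lowest at 24 h, for number 4, to the second decimal.

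Several others are known from haematopoietic cells. Alox5ap, needed for leukotriene synthesis, rose by 0.74, Lat2, an adaptor of B-cell and mast cell receptors, by 0.73, Cr2 by 0.69, Ptpn22, a phosphatase that dampens antigen receptor signals, by 0.65 and Timd2, a TIM family receptor, by 0.65. Sel1l3 rose by 0.81, the integrin gene Itga1 by 0.67 and Emb, embigin, by 0.66. The pair of number 2 was the smallest of the 4 for each of these genes and for Bex6 and Lifr. Examples are Lat2 (0.25 against 0.72 to 1.04), Alox5ap (0.36 against 0.73 to 1.05), Cr2 (0.33 against 0.56 to 1.07) and Emb (0.29 against 0.64 to 0.90). These genes were chosen by the fit with the fibroblast covariate, and number 2 had the largest fibroblast pair (0.94). That choice favours genes with this pattern. Vcl was the member of the TGF-β and SRF list that was called with the covariate (0.56, adjusted p = 0.0151). It stood at 10.23, 10.05, 9.90 and 9.93 at 12 h and between 10.55 and 10.76 at 24 h.

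Besides the NF-kB genes and H2bc8, several named genes fell and were also called lower with the covariate. Slc19a2, a thiamine transporter, stood at 10.70, 10.81, 10.82 and 10.73 at 12 h and at 10.51, 10.20, 10.34, 10.28 and 10.17 at 24 h, and fell by 0.52 (SE 0.05, adjusted p = 0.0181). Atg16l2, a relative of an autophagy protein, stood at 9.07, 9.10, 9.11 and 9.17 and then between 8.55 and 8.72, and fell by 0.48 (SE 0.05, adjusted p = 0.0196). Pafah1b3, a catalytic subunit of platelet-activating factor acetylhydrolase, fell by 0.44, Rex1bd by 0.54 and Ddt, D-dopachrome tautomerase, by 0.47. Spata48 fell by 0.54, but another of its probe sets gave -0.10.

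**Figure D5:**
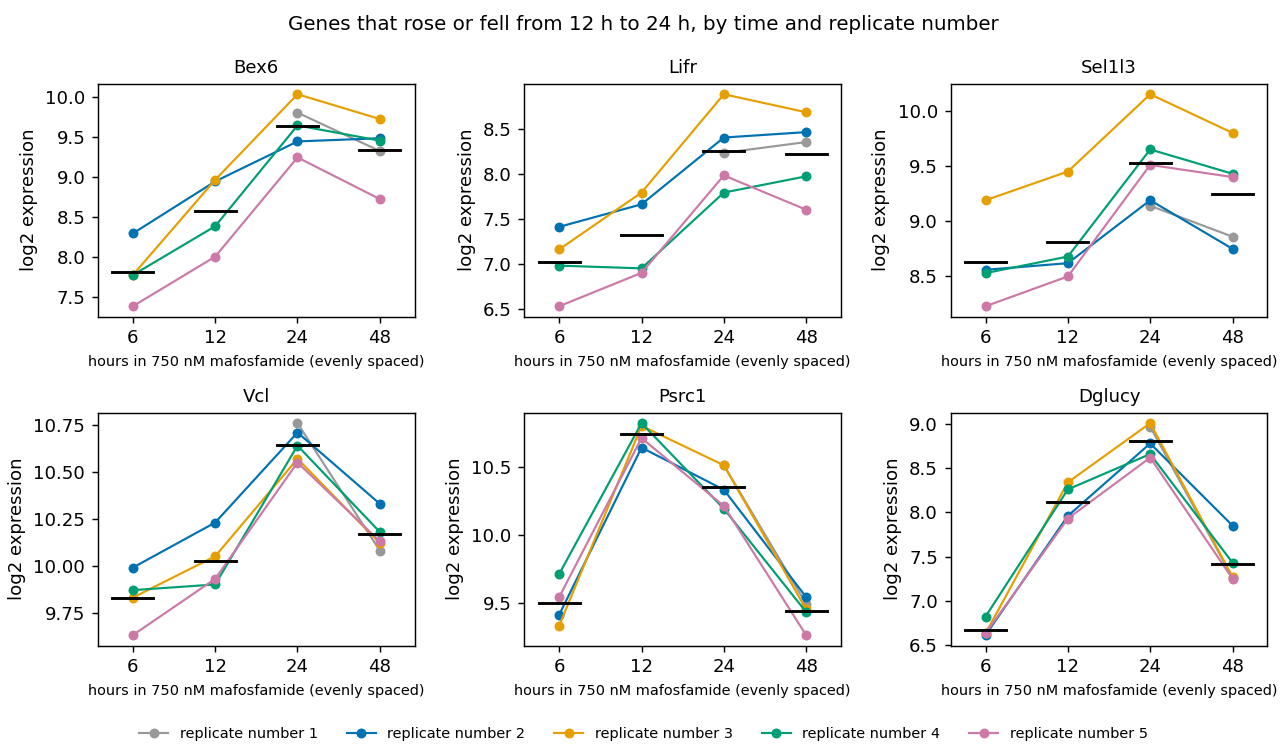
Log2 expression (y axis) of Bex6, Lifr, Sel1l3, Vcl, Psrc1 and Dglucy on the 18 treated parental arrays at 6, 12, 24 and 48 h (x axis, evenly spaced), with lines joining arrays of the same number and black bars for group means. Dglucy reached a mean of 8.81 at 24 h, and Psrc1 passed from 10.74 at 12 h to 10.35 at 24 h.

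The remaining lists showed 0 to 3 calls each, and those without a call are given with their size. Over all genes 2.83% rose and 1.88% fell. Msmo1 (0.34), Lss (0.25) and Sqle (0.23), enzymes of cholesterol synthesis, rose among 25 sterol genes, and the lysosomal enzymes Hexa (0.48) and Asah1 (0.39) rose among 28 lysosome and autophagy genes. Of 29 immediate early genes 3 fell, Ier5 (-0.44), Jund (-0.35) and Btg2, and of 19 chromatin genes 3 fell, Ezh1 (-0.25), Phf1 (-0.41) and Kdm6b (-0.26). Irf1 fell among 27 interferon genes (-0.44, with -0.21 from a second probe set), H2-Q4 among 12 MHC class I genes (-0.53) and Ndufs8 among 39 respiratory chain genes (-0.24). Hk2, hexokinase 2, rose among 18 glycolytic genes (0.23), Ptpn22 among 23 genes of B-cell receptor signalling, and Me1 (0.79) and Ephx1 among 26 of the oxidant response. Birc3 was the call among 19 death receptor genes and Irf4 among 15 plasma cell genes. No call was made among 33 proteasome, 16 clock and cold-response and 9 housekeeping genes.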

How the data were processed

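Transcript levels were measured on Affymetrix Mouse Gene ST 1.0 arrays, 1 per sample. Per the labels and the study's methods, the authors made the deposited log2 values with robust multi-array averaging (justRMA of the affy package), which corrects background, forces all arrays to 1 intensity distribution and summarises probes. Such values cannot show a shift in the total RNA of a cell, and they compress differences at low signal. The build in the submitters' processing notes is mm9, so no array coordinates are given. The number of arrays limits the precision.

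Of 34760 probe sets, 21640 had 1 gene symbol, 1321 had several and 11799 were unnamed here. Where a gene had several (954 genes), the one with the highest mean on the 9 arrays stood for it, which left 19937 genes. Differences were fitted with limma 3.58.1 in R 4.3.3 (lmFit and eBayes) with the replicate number of the sample description as a fixed block (3 residual degrees of freedom), with Benjamini-Hochberg adjustment over all genes and a threshold of 0.05. Same-number arrays deviated together, with correlations of 0.64, 0.60, 0.35 and 0.25 for numbers 2 to 5, although the 12 h array of number 5 correlated more with the 24 h array of number 4 (0.31). The titles number the 12 h arrays 1 to 4 instead. The code was tested on simulated data.

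The comparison, its 42 gene lists and the naming rule were chosen with earlier results of these data known, so lists are described by counts and medians and have no p of their own. Named genes were the 15 largest rises and 15 largest falls called with the same direction in the 4 pairs, the 10 largest of each also called with the fibroblast mean as a covariate over 18 arrays, up to 4 members per list, taken by smallest p, and a short set of fixed names. Predicted gene models were passed over. Genes cited beyond these are list members given for completeness and were chosen after their values were seen. The checks of 133 called genes took in the called genes of the naming rule and every other called list member. Alternatives changed the block, the arrays, the covariate, the centring, the probe set, the filter on dim genes and the variance model. The fits leaving out a number from the 18 arrays, or numbers 2 and 4 together, were added after seeing the data. Promoters came from RefSeq (GRCm38.p6).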

Additional observations from a re-analysis of the deposited data

Results flagged for a closer look

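In 266 tests of a group's highest or lowest array (133 called genes, named by rule or on a list, 4 arrays at 12 h and 5 at 24 h), 19 had a gap to the nearest array above the critical value of Dixon's test. Chance flags about 1 group in 20, and causes were not tested. At 12 h, number 2 was low for Rag1 (8.95, nearest 10.26), Mrc1 (7.42, nearest 8.83) and Hk2 (9.51, nearest 9.94) and high for Ddias (11.41, nearest 11.04). Number 3 was low at 12 h for Anxa1 (7.78, nearest 8.26), Ccn2 (8.92, nearest 9.73), Serpinh1 (7.47, nearest 8.05) and Mxd4 (10.09, nearest 10.54). At 24 h, number 1, which has no 12 h array and does not enter the differences, was high for Ddt (9.65, nearest 9.07), H2ac4 (11.42, nearest 11.11) and Mlx (11.27, nearest 10.97) and low for Tsr1 (10.88, nearest 11.01). Number 2 was low at 24 h for Iftap (5.62, nearest 6.40), Irf1 (9.11, nearest 9.53), Rag2 (8.46, nearest 9.27) and Timd2 (7.35, nearest 7.95), number 3 for Ankrd1 (6.71, nearest 7.71) and number 4 for H2bc8 (9.93, nearest 10.20) and Phf1 (8.57, nearest 8.93).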

How the results depend on the processing

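Without the replicate block 8 genes were called (3 higher, 5 lower), with the number as a random block 934 (471 and 463), and with the numbers of the titles as the block none (2251 genes at an unadjusted p under 0.05). Leaving out a replicate gave 0 to 940 genes (0 to 565 higher, 0 to 375 lower): 299 without number 2 and 519 without number 3, but none without number 4 or 5, where 2 residual degrees of freedom remain. Without numbers 2 and 4 together there was none (3558 at an unadjusted p under 0.05). The 18 treated arrays gave 1400 (828 higher, 572 lower) and, less all arrays of number 1, 1458 (847 and 611), of number 2, 769 (526 and 243), of number 3, 805 (546 and 259), of number 4, 62 (28 and 34), and of number 5, 77 (53 and 24).

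Median centring gave 1194 genes (628 higher, 566 lower). Housekeeping centring gave 1545 (435 higher, 1110 lower), so that 28.2% of calls were higher in place of 60.1%, with the median of all genes at -0.071. Dnaja1, Ddx21, Noc3l, Hspa5, Hsp90b1 and Sqle lost their calls under both, and Serpinh1, Irf8, Hk2, Lss and Gata3 under the second. Leaving out genes with a mean below 6 gave 1253 (720 and 533), array weights 1443 (817 and 626), an intensity trend 2181 (1298 and 883), the probe set by its mean over 30 arrays 934 (560 and 374), and all 34760 probe sets none (6610 at an unadjusted p under 0.05). The fibroblast mean as a covariate left none over 9 arrays (1439 at an unadjusted p under 0.05) and 126 over 18 (94 and 32).

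None of the 133 called genes that were checked changed sign except under that covariate. Over 9 arrays the difference became -0.11 for Ak1, -0.10 for Anxa1, -0.03 for Anxa2, -0.02 for Axl, -0.02 for Me1, -0.12 for Nrn1, -0.13 for Perp and -0.04 for Timp3. Over 18 it became -0.19 for Ak1, -0.02 for Anxa1, -0.10 for Axl, -0.04 for Me1, -0.16 for Nrn1, -0.11 for Perp, -0.21 for Timp3, -0.06 for Akr1c18, -0.04 for Aldh7a1, -0.02 for Ccn2, -0.25 for Ephx1, -0.06 for Fn1, -0.03 for Gpx8, -0.01 for Nckap1 and -0.11 for Serpinh1.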
